A study of Mus musculus with 12 samples.

Results

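Open chromatin between genes was followed in C2C12 muscle cells kept in medium conditioned by C26 colon carcinoma cells or in control medium. The regions described here are the 6329 peaks, of 38244 in the ATAC-seq peak table, that the table places between genes, at most 50 kb from the nearest transcription start site, outside annotated repeats and CpG islands, and at a mean of at least 5 scaled tags over the 6 libraries. The rule uses no difference between the groups, though it was set with earlier results of these data known. Of the 13655 peaks annotated as intergenic, 10321 lay outside repeats and CpG islands, 6404 of these lay within the distance, and 75 of those were left out by the minimum mean. The 6329 regions, called intergenic peaks below, had 3936 different nearest genes, of which 2556 had 1 such peak and 1380 had more. The peaks at the limits of the rule were a Rhou peak at a mean of 5.02 tags just inside and a Gm1604b peak at 4.90 tags just outside, and a Podxl peak at 49999 bp just inside and a Spata18 peak at 50008 bp just outside.

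ATAC-seq uses a transposase that inserts sequencing adapters where DNA is not wrapped tightly in nucleosomes, so that a local excess of reads marks accessible chromatin. Accessible stretches away from start sites include enhancers, insulators and start sites of unannotated transcripts, and many enhancers act only in certain cell types or after a stimulus. In muscle cells such elements are known to bind the myogenic bHLH factors and MEF2, and after cytokine exposure AP-1, STAT3, NF-kB and C/EBP factors. The nearest gene is used below as the name of a peak, and a link between the peak and that gene was not tested.

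C2C12 is an established mouse myoblast line, labelled here with the genotype C3H, that fuses into myotubes in horse serum. The treated cells received C26 conditioned medium for 24 hours after differentiation and the control cells did not, with 3 libraries in each group. The titles speak of myotubes and the cell type label of myoblasts. All cells come from 1 line seeded in triplicate wells. Whether the 3 libraries per group are separate cultures is not stated, so the p-values reflect only how these samples spread, a spread that may be technical. A second experiment measured RNA of muscle from C57BL/6 mice, 3 that had received 500000 LLC (Lewis lung carcinoma) cells and 3 that had received PBS, with tissue taken on day 22; which muscle is not named. Of 12 myoblast and myotube markers, Myod1, Des and Chrna1 had a tested ATAC peak within 1000 bp of their start site, while Myog, Acta1, Ckm, Myh3 and 5 others had none. Of the markers of other cells, none of 8 for epithelial or carcinoma cells, none of 6 for leukocytes and none of 3 for fat cells had one, against 3 of 4 for fibroblasts (Pdgfra, Dcn and Col1a1) and 1 of 4 for endothelium (Tek). The 3 fibroblast start-site peaks summed to 148, 118 and 131 scaled tags after C26 medium and 340, 165 and 244 in control cells, and the 3 muscle ones to 109, 112 and 112 after C26 medium and 257, 124 and 176 in control cells. The part of other cell types in the results was not tested.

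Of the intergenic peaks, 138 (2.18%) overlapped a RefSeq start window, which runs from 250 bases before to 50 bases after an annotated start, and 114 of them held the start itself. The starts belonged to 140 RefSeq genes, 121 of them long non-coding RNAs and 19 protein-coding genes, and the peak table names 5 of these as nearest. Sequence is shown for 6 of these windows, chosen after their values were seen as examples of peaks that were higher or lower after C26 medium or that lie at a named locus. The letters are those of RefSeq on GRCm38.p6 (mm10), over the stretch that peak and window share, 5′ to 3′ on the strand of the RefSeq gene. Capitals mark the AP-1 letters TGANTCA, the E-box CAGCTG and the C/EBP letters TTGCNNAA, on either strand.
Prss30 peak, Gm41546 start window, chr17:23967015-23967314, plus strand: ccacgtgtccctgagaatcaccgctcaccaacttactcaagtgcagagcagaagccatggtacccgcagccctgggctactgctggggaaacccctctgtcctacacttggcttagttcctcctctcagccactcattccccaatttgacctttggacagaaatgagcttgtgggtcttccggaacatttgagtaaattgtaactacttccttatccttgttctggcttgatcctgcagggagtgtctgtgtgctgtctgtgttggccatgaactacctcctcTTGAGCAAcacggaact
4930487H11Rik peak, Gm4208 start window, chr1:62838076-62838375, minus strand: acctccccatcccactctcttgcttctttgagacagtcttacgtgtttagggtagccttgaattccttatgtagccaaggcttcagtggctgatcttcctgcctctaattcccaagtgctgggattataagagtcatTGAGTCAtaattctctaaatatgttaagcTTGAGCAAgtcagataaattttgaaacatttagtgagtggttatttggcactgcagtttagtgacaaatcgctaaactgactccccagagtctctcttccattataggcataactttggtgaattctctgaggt
Dusp1 peak, Gm34455 start window, chr17:26490920-26491170, minus strand: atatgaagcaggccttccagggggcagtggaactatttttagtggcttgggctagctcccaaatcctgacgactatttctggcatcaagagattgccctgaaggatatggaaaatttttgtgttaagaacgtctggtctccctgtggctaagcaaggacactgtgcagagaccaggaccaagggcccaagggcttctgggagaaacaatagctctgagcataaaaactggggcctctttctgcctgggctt
Fosb peak, Gm26802 start window, chr7:19300768-19301043, minus strand: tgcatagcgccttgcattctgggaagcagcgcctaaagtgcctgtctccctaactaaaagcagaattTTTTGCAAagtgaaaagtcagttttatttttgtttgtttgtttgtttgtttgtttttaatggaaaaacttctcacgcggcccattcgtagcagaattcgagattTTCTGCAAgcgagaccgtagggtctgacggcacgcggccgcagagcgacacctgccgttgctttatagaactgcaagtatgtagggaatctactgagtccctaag
Smad5 peak, Gm33019 start window, chr13:56682354-56682653, plus strand: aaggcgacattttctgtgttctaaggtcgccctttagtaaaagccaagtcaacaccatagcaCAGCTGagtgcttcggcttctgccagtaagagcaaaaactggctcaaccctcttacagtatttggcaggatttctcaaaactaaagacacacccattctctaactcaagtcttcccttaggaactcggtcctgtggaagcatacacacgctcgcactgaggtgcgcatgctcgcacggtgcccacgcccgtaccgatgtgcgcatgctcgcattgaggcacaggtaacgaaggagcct
Gm11217 peak, Gm31115 start window, chr4:64282468-64282767, plus strand: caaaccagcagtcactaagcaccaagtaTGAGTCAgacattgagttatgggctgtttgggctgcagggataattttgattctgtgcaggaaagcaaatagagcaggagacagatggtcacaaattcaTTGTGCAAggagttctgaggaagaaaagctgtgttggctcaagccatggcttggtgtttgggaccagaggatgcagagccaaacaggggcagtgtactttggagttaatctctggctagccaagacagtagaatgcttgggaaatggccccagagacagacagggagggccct

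The peak downstream of Prss30, a serine protease gene, and the peak upstream of 4930487H11Rik were higher after C26 medium. The Prss30 peak had 13.3, 19.1 and 20.1 scaled tags after C26 medium and 4.02, 4.05 and 6.43 in control cells, and the 4930487H11Rik peak had 23.02, 21.5 and 23.9 after C26 medium and 10.7, 3.71 and 8.90 in control cells. The groups did not overlap in either, though the peaks were chosen after their values were seen. The peak upstream of Smad5, a mediator of BMP signals, was lower, with 3.90, 4.51 and 3.85 tags after C26 medium and 16.1, 13.5 and 13.8 in control cells. Over all 153 start windows that met an intergenic peak, the AP-1 letters were present in 17.0%, against 7.81% of the 32851 windows in the RefSeq table. The C/EBP letters were in 20.3% of them against 10.8%, CAGCTG in 24.2% against 16.3%, the TEAD letters GGAATG in 20.9% against 14.7%, the RUNX letters TGTGGT in 23.5% against 16.8% and the STAT letters TTCNNNGAA in 11.8% against 8.30%. The cyclic AMP response letters TGACGTCA were in 1.96% against 1.79%, and CCCTC, part of the CTCF motif, in 71.2% against 66.0%. Of 3 longer motifs, NF-kB letters were in 22.2% against 20.7%, the glucocorticoid element in 5.23% against 3.11%, and the NFI palindrome in 0% against 0.0365%. The 153 windows meet peaks outside CpG islands and belong mostly to long non-coding RNAs, while the 32851 were not limited in this way. Base composition was not matched between them, and some peaks meet several windows. These are shares of letters in windows on both strands, not bound sites, and the other intergenic peaks could not be searched because no genome sequence was used here.

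The libraries held 12.8, 14.4 and 18.2 M tags after C26 medium and 11.2, 14.8 and 10.1 M in control cells, and the deposited values are scaled to 10 M (10000000) tags per library. On that scale 1 read end is worth 0.275 to 0.494 tags, depending on the library. The share of all tags that fell in peaks was 13.0%, 12.0% and 13.5% after C26 medium, against 27.0%, 13.1% and 17.9% in control cells, so the first control library stood apart. The intergenic peaks followed it. Their median was 21.5, 19.8 and 23.4 tags after C26 medium and 42.9, 19.9 and 26.7 tags in control cells. Dividing each library by its median ratio to the geometric mean of all libraries (median-of-ratios scaling) brought these medians to 25.5, 25.2 and 26.2 after C26 medium and 23.8, 23.4 and 22.9 in control cells. This rescaling moved the median log2 difference of all 37358 tested peaks to -0.02, against -0.54 as deposited. Differences on the deposited scale include that shift, so the counts of calls over all intergenic peaks are given on both scales. The similar library medians and the small median difference after rescaling follow from how the rescaling is made. It would also remove a true change shared by most peaks, so rescaled differences are relative to the typical peak. Values of single peaks are as deposited unless the rescaled value is named. As a share of all tags in peaks, which does not depend on the scaling, the intergenic peaks held 14.6%, 14.6% and 14.9% after C26 medium and 13.9%, 13.9% and 13.8% in control cells, and the groups did not overlap.

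**Figure D1:**
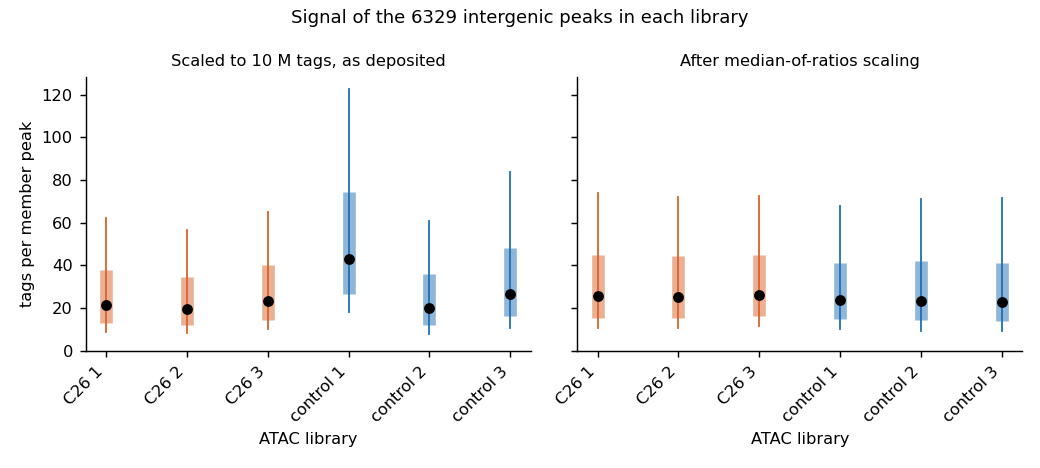
Scaled tags per intergenic peak in each ATAC library (C26 medium orange, control blue), as deposited on the left and after median-of-ratios scaling on the right; dots are medians, thick bars the 25th to 75th percentile and thin lines the 10th to 90th percentile. As deposited, the first control library has a median of 42.9 tags and the other 5 libraries lie between 19.8 and 26.7, and after rescaling all 6 lie between 22.9 and 26.2. The rescaling is made to bring the libraries together.

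The intergenic peaks had a median width of 462 bp (160 to 4508 bp) against 522 bp over all tested peaks and 714 bp at promoters. Their median distance from the nearest start was 17.95 kb, and 4528 (71.5%) lay upstream of it. Their median signal was 25.6 tags, against 25.7 tags in intronic peaks outside repeats and 53.0 tags at promoters. Of the 6329, 3292 (52.0%) had been called by the authors in all 6 libraries, against 60.7% of all tested peaks and 84.1% of promoter peaks. The nearest gene was protein-coding for 80.0% and a non-coding RNA for 18.5%. Over the intergenic peaks, log2 levels correlated at r = 0.926 to 0.943 between libraries of the same group (6 pairs) and at 0.791 to 0.814 between the groups (9 pairs), a description across peaks that share their libraries.

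After C26 medium, 94 intergenic peaks rose (1.49%, against 1.15% of all tested peaks) and 153 fell (2.42%, against 1.88%), by limma on log2(tags + 1) with Benjamini-Hochberg adjustment over all 37358 tested peaks and a threshold of 0.05. The rises had a median log2 difference of 1.73 (1.27 to 4.17) and the falls of -1.46 (-2.53 to -1.10). In 30 of the 94 the control mean was under 5 tags, and in 5 of the 153 the C26 mean was. All C26 libraries lay above all control libraries in 91 of the 94, and below them in 151 of the 153. The calls were made on these same values, so this separation adds no support, and its share over all tested peaks is not given here. With median-of-ratios scaling 1349 were called higher (21.3%, against 17.0% of all tested peaks) and 669 lower (10.6%, against 12.7%). All 94 and all 153 were among these, so that 1255 more were called higher and 516 more lower. The direction that prevailed therefore depended on the scaling, with 38.1% of the calls being rises as deposited and 66.8% after rescaling.

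The number called as deposited also rested on single libraries. Without C26 library 1, 2 or 3, in that order, 15, 21 and 13 intergenic peaks were called higher and 8, 12 and 12 lower. Without control library 1 there were 413 higher and 466 lower, without control library 2 165 and 2938, and without control library 3 24 and 13. With median-of-ratios scaling the 6 counts ranged from 1079 to 1226 higher and from 476 to 580 lower. The shares over all tested peaks in these fits are not given here. The counts therefore show how the number called moves, not a trait of the intergenic peaks.

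**Figure D2:**
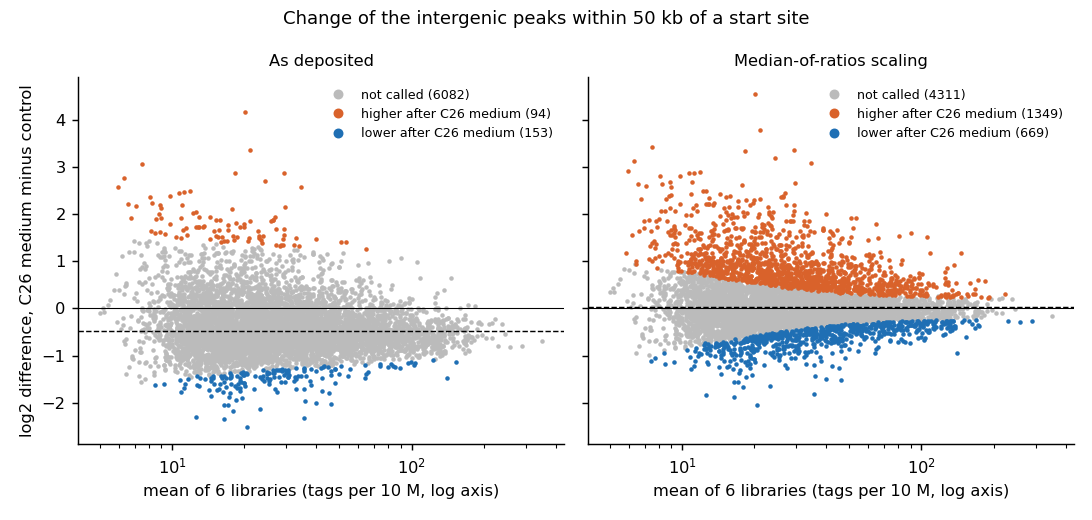
Log2 difference (C26 medium minus control) of each intergenic peak against its mean over the 6 libraries on a log axis, as deposited on the left and with median-of-ratios scaling on the right; orange points were called higher, blue points lower, and the dashed line is the median. As deposited the median lies at -0.48 with 94 and 153 calls, and after rescaling at 0.04 with 1349 and 669 calls.

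The calls were also counted by distance from the start site. With median-of-ratios scaling 17.9% of the 861 peaks at 1 to 5 kb were called higher, 209 of the 1046 at 5 to 10 kb, 21.7% of the 2176 at 10 to 25 kb and 22.8% of the 2246 at 25 to 50 kb. The share called lower was 13.1%, 11.6%, 10.1% and 9.57% over the same bins. As deposited the shares called higher were 1.05%, 1.24%, 1.42% and 1.83%, and those called lower 1.51%, 2.68%, 2.94% and 2.14%. Intergenic peaks 50 to 200 kb away had 27.1% higher and 9.56% lower with median-of-ratios scaling, and intronic peaks outside repeats 22.7% and 8.28%, against 1.94% and 2.95% and against 1.20% and 1.96% as deposited. Promoter peaks stood at the other end, with 2.31% higher and 21.7% lower after rescaling, and 0.0517% and 0.968% as deposited. The intergenic peaks' median log2 difference on that scale was 0.04, against -0.17 for promoter peaks. These shares are descriptions, since peaks are not replicates.

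The calls were counted by strength and place too. As deposited, 47 of the rises were among the 1584 weakest intergenic peaks by mean (2.97%) and 3 among the 1582 strongest (0.19%). With median-of-ratios scaling the same weakest peaks had 20.3% higher and 4.36% lower, and the strongest 22.1% and 17.0%. Upstream and downstream peaks had 21.2% and 21.6% higher and 10.5% and 10.8% lower on that scale, and 1.55% and 1.33% higher and 2.25% and 2.83% lower as deposited. Of the 96 intergenic peaks on chromosome X, 11.5% were called higher and 19.8% lower after rescaling, with a median log2 difference of -0.20, and as deposited none was called higher and 6 lower. Chromosome X is named as the extreme of the chromosomes counted. On the numbered chromosomes 19.3% to 23.9% were called higher and 7.1% to 13.2% lower after rescaling. The share over all tested peaks of chromosome X is not given here. There were 173 intergenic peaks that the authors' lists gave in C26 libraries only and 144 in control libraries only. As deposited 56 of the 173 were called higher and 37 of the 144 lower, and after rescaling 167 (96.5%) and 69 (47.9%); the lists and the tags come from the same reads.

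**Figure D3:**
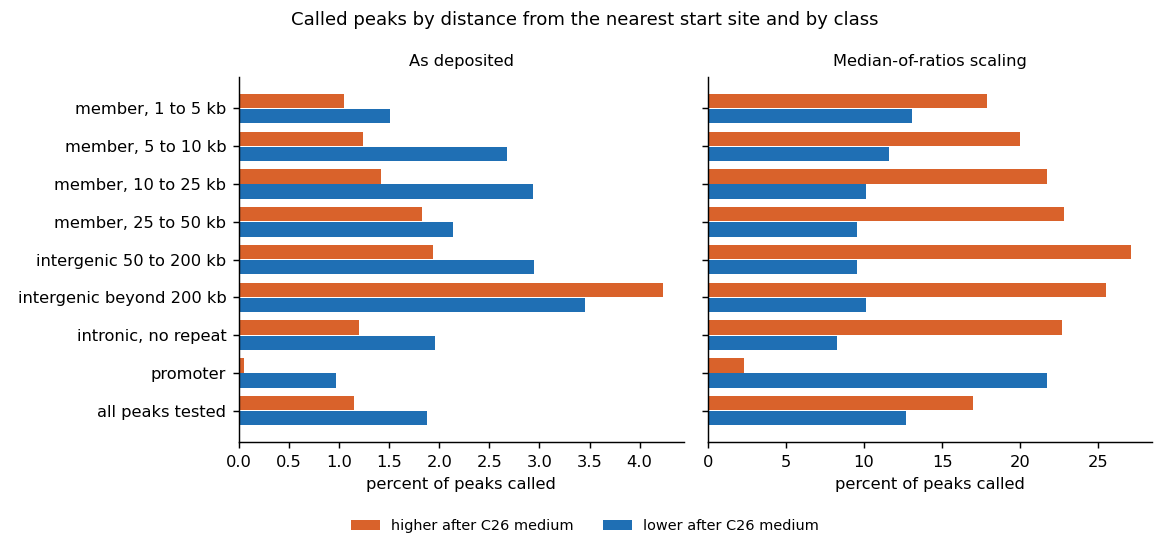
Percent of peaks called higher (orange) or lower (blue) after C26 medium for the intergenic peaks in 4 distance bins, 4 other classes and all tested peaks, as deposited on the left and with median-of-ratios scaling on the right. On the right the share called higher is 17.9% at 1 to 5 kb and 22.8% at 25 to 50 kb, against 2.31% at promoters.

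The largest rise was at chr7:128307800-128308268, 9.9 kb upstream of BC017158, a protein-coding gene. It had 39.4, 38.9 and 39.0 tags after C26 medium and 1.34, 1.35 and 0.99 in control cells, that is 101, 112 and 142 read ends against 3, 4 and 2. The log2 difference was 4.17 ± 0.47 (SE, adjusted p = 3.9e-14) and 4.55 with median-of-ratios scaling. The other 3 intergenic peaks of BC017158 were not called as deposited (log2 differences of -0.13 to 0.41), and all 3 were called higher after rescaling (0.40 to 0.94).

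The next was 3.9 kb upstream of Pptc7, a mitochondrial protein phosphatase, at chr5:122280254-122280787. It had 37.5, 36.8 and 43.7 tags after C26 medium and 2.68, 2.70 and 3.46 in control cells (log2 difference 3.35, adjusted p = 5.05e-10). The peak at the Pptc7 start site moved the other way, with 17.95, 25.3 and 25.3 tags after C26 medium and 68.4, 39.5 and 59.3 in control cells. That difference of -1.23 missed the threshold as deposited (adjusted p = 0.0511) and passed it with median-of-ratios scaling (-0.71, adjusted p = 0.000447).

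Other large rises were near Calml3, a calmodulin-like gene (38.1 kb downstream, 3.07), 4930556N09Rik (43.9 kb downstream, 2.78), 4921509O07Rik (32.1 kb upstream, 2.59) and Ctxn3 (17.8 kb downstream, 2.50). After rescaling these differences were 3.43, 3.13, 3.08 and 2.90 in the same order. The Calml3 peak had 12.5, 16.7 and 12.9 tags after C26 medium and 1.79, 1.01 and 0 in control cells. In each of the 10 largest rises the authors' lists held the peak in all 3 C26 libraries and in none of the control libraries. The lists and the tags come from the same reads, so this adds no support. All of the 10 largest falls were listed in all 3 control libraries. Those near Sdr9c7, Kcns2 and Pank3 were also listed in 2 C26 libraries and that near Gm11217 in 1.

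The largest fall was 19.5 kb upstream of Supt20, a subunit of the SAGA coactivator complex, at chr3:54672970-54673707. It had 3.12, 5.55 and 7.14 tags after C26 medium and 54.5, 28.4 and 24.7 in control cells (log2 difference -2.53 ± 0.44, SE, adjusted p = 7.8e-06), and -2.04 with median-of-ratios scaling. Its start-site peak was not called on either scale (-0.72 as deposited and -0.19 after rescaling).

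Gm11217, whose intergenic peak 6.0 kb upstream is among the sequences above, came next with 8.58, 1.39 and 5.22 tags after C26 medium and 45.6, 18.2 and 19.8 in control cells. Its difference of -2.34 lost the call without C26 library 2 (-1.78, adjusted p = 0.115). A peak 34.2 kb downstream of Sdr9c7, a short-chain dehydrogenase of the epidermis, had 7.80, 10.8 and 14.3 tags after C26 medium and 86.7, 38.1 and 56.4 in control cells (-2.32, adjusted p = 7.94e-06, and -1.81 after rescaling). A peak 31.1 kb downstream of Slc40a1, the iron exporter ferroportin, had 7.02, 7.64 and 8.79 tags after C26 medium and 50.5, 36.1 and 29.2 in control cells (-2.14, adjusted p = 0.000169, and -1.64 after rescaling). In all 4 of these falls the groups did not overlap, though the peaks were chosen by their change in these same libraries.

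The remaining falls of this size lay near Atp6ap2, an accessory subunit of the vacuolar proton pump (22992 bp upstream, -2.31), 1700029H14Rik (23.5 kb downstream, -2.17), A630001O12Rik (25.2 kb downstream, -2.06), Snx20, a sorting nexin (31.6 kb downstream, -2.05), Kcns2, a modifier subunit of voltage-gated potassium channels (42.0 kb upstream, -2.04), and Pank3, a kinase of coenzyme A synthesis (45.4 kb upstream, -2.01). Without C26 library 1, 4 calls were lost, those near Atp6ap2 (adjusted p = 0.102), A630001O12Rik (0.157), Snx20 (0.081) and Kcns2 (0.093). Without C26 library 3, the calls near Pank3 (0.101), Snx20 (0.0558) and, among the rises, the downstream 1700049E15Rik peak (0.0587) were lost. With median-of-ratios scaling all 20 of these largest changes were called the same way, also without any 1 library.

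**Figure D4:**
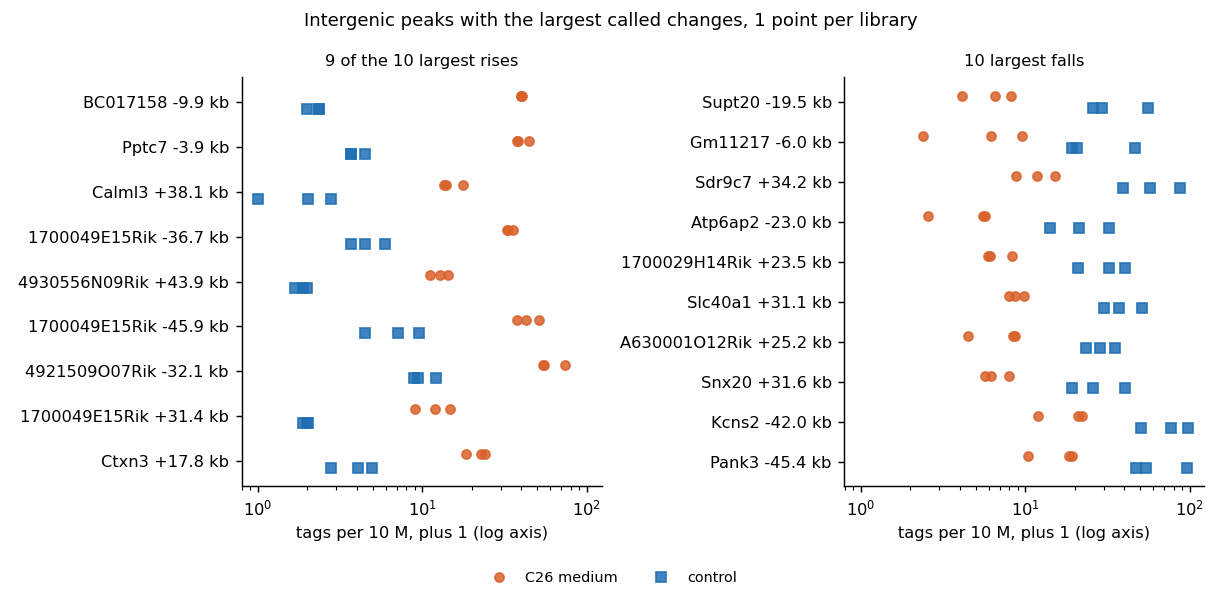
Scaled tags plus 1 on a log axis for intergenic peaks with the largest called changes, 9 rises (left) and 10 falls (right), 1 point per library, with C26 medium as orange circles and control as blue squares; the label gives the nearest gene and the distance, minus for upstream. The C26 and control points do not overlap in any row, and the rows were chosen by these same values. The BC017158 peak has 38.9 to 39.4 tags after C26 medium against 0.99 to 1.35 in control cells.

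Several loci had more than 1 called intergenic peak. As deposited 235 nearest genes had at least 1 called peak and 10 had 2 or more, of which 4 had rises only, 4 falls only and 2 both. The non-coding gene 1700049E15Rik had 3 of its 4 intergenic peaks called higher, at 45.9 kb and 36.7 kb upstream and 31.4 kb downstream (log2 differences 2.71, 2.88 and 2.57). The peak 36.7 kb upstream had 32.0, 31.9 and 34.6 tags after C26 medium and 4.91, 2.70 and 3.46 in control cells. The remaining one, 2.3 kb upstream, had 11.7, 12.8 and 12.1 tags after C26 medium and 8.04, 7.76 and 1.98 in control cells, and was called with median-of-ratios scaling only (1.56).

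Tns4, a focal adhesion protein, had rises 28.9 kb and 19.2 kb upstream (2.45 and 1.89), Mtss1, an actin and membrane-bending protein, 43.5 kb and 33.5 kb upstream (1.73 and 1.54), and Sipa1l1, a Rap GTPase-activating protein, 21.2 kb and 15.2 kb upstream (2.21 and 1.63). The Tns4 peak 19.2 kb upstream had 42.9, 40.6 and 42.6 tags after C26 medium and 12.1, 7.43 and 13.4 in control cells. Falls came in pairs near C230035I16Rik (15041 and 6923 bp upstream, -1.27 and -1.78), Crb2, a polarity protein (12.5 kb and 7.1 kb upstream, -1.49 and -1.47), Cmklr1, the chemerin receptor (22.3 kb and 10.7 kb upstream, -1.44 and -1.48), and H2al1k. The Crb2 peak 7.1 kb upstream had 25.4, 21.5 and 17.0 tags after C26 medium and 90.7, 43.9 and 54.4 in control cells. With median-of-ratios scaling 1596 genes had a called peak and 320 had 2 or more, of which 181 had rises only, 44 falls only and 95 both.

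**Figure D5:**
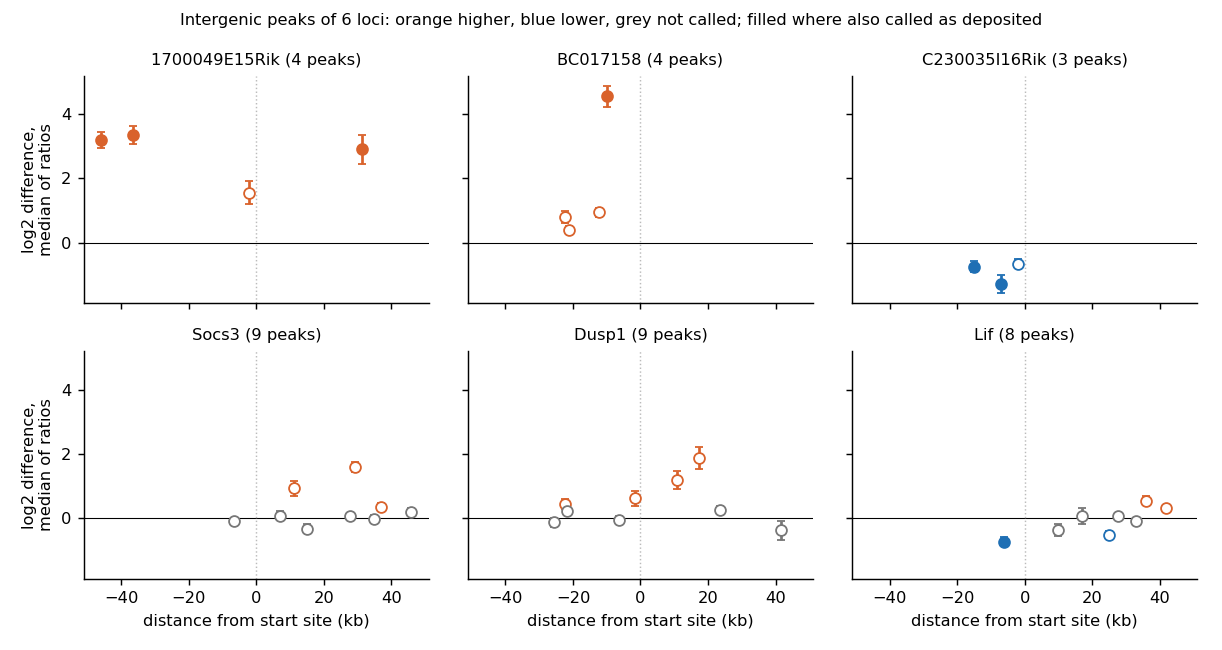
Log2 difference after median-of-ratios scaling (C26 medium minus control, error bars SE) of each intergenic peak against its distance from the start site in kb at 6 loci; orange was called higher, blue lower, grey not called, and filled points were also called as deposited. The 4 peaks of 1700049E15Rik lie between 1.56 and 3.35, while the 9 peaks of Socs3 range from -0.34 to 1.59 and the 8 of Lif from -0.74 to 0.54.

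In the 11 gene lists examined, 6 intergenic peaks were called as deposited, 3 higher near Neb, Mmp13 and Dkk3 and 3 lower near Lif, Cxcl12 and Vldlr. No list had more than 1 call in either direction on that scale, with 11 to 50 intergenic peaks per list. Over all intergenic peaks 1.49% were called higher and 2.42% lower as deposited. Each of these 6 calls was lost when any 1 of the C26 libraries was left out, and all but that of Dkk3 also without control library 3, with adjusted p from 0.053 to 0.421. With no filter on the peaks tested, the calls near Neb (adjusted p = 0.0977), Lif (0.121), Cxcl12 (0.0835), Mmp13 (0.0852) and Vldlr (0.0624) were lost at the same log2 differences, and at a mean of at least 20 that near Lif (0.056); the cause was not tested. With median-of-ratios scaling all 6 were called the same way. Counts for the lists on that scale are given below (Fosl2 and Sesn2 stand in 2 lists each), to be read against 21.3% higher and 10.6% lower over all intergenic peaks. Some peaks called higher on that scale had a negative difference as deposited. In the IL-6 family list 12 of 37 were called higher after rescaling, while 8 were positive as deposited. Most peaks named from the lists have the smallest p there. A lack of overlap between the groups was favoured by that choice and adds no support.

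Among muscle genes, the myogenic factor and MEF2 list had 16 intergenic peaks, of which 4 were called higher and 1 lower. Of these, 2 of the 3 peaks of Mef2d, a MADS-box factor of muscle genes, and the peak of Myf6, a late myogenic factor, were among the higher ones. The strong peak 5.5 kb downstream of Id1, an inhibitor of the myogenic bHLH factors, was the lower one, with 65.2, 81.2 and 86.3 tags after C26 medium and 183, 105 and 125 in control cells as deposited (log2 difference -0.26 on the rescaled values). The peak of Myod1 was not called (0.00 after rescaling), nor was the one 26.5 kb upstream of Id3, another inhibitor of these factors (-0.18 after rescaling).

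Sarcomere genes had 16 intergenic peaks, 4 higher and 2 lower. Both peaks of Neb, which encodes nebulin, the protein that spans the thin filament, were higher. The one 33.8 kb upstream had 21.1, 24.3 and 35.7 tags after C26 medium and 13.0, 5.74 and 7.91 in control cells (1.54 as deposited, adjusted p = 0.0211, and 2.04 after rescaling). The one 32.3 kb upstream had 14.4, 15.3 and 14.6 tags after C26 medium and 8.94, 4.05 and 4.45 in control cells and passed after rescaling only (1.76). The peak 5.9 kb upstream of Myh2, the fast IIa myosin heavy chain, was called lower after rescaling (-0.61).

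The atrophy list of ubiquitin ligases and the FOXO axis had 22 intergenic peaks, 5 higher and 2 lower. A peak 36.6 kb upstream of Fbxo30, a ubiquitin ligase known as MUSA1 in muscle atrophy, had 31.6, 27.8 and 38.5 tags after C26 medium and 20.1, 8.78 and 10.9 in control cells. Its log2 difference of 1.31 missed the threshold as deposited (adjusted p = 0.0522) and was 1.82 after rescaling (adjusted p = 8.47e-10). Of the 3 peaks of Fbxo32, the ligase atrogin-1, 1 was called higher after rescaling, with the 3 between 0.07 and 0.79. The peaks near Trim55, a titin-associated MuRF family protein (15.8 kb upstream, -0.41), and Sesn2, a stress-induced regulator of mTORC1 (3.6 kb upstream, -0.64), were lower on that scale.

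The IL-6 family and STAT3 list had 37 intergenic peaks, 12 higher and 4 lower after rescaling. Both peaks of Il6, the cytokine itself, were higher on that scale (1.36 and 1.81). The one 12.0 kb upstream had 22.6, 21.5 and 26.4 tags after C26 medium and 12.1, 6.08 and 9.39 in control cells, without overlap, and missed the threshold as deposited (1.31, adjusted p = 0.0642). Lif, which encodes a cytokine of the same family, had 8 peaks that split, 2 higher and 2 lower.

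The Lif peak 6.1 kb upstream had 23.02, 21.5 and 23.6 tags after C26 medium and 96.1, 36.1 and 49.9 in control cells. It fell by 1.26 on the log2 scale as deposited (adjusted p = 0.0431) and by 0.74 after rescaling. Socs3 is the feedback inhibitor of these receptors. It had 9 peaks, 2 of them with a positive difference as deposited, and 3 called higher and 6 not called after rescaling. Its peak 29.3 kb downstream had 49.2, 53.1 and 63.7 tags after C26 medium and 50.9, 16.2 and 20.3 in control cells, so that the groups overlapped as deposited. The difference was 1.07 there (adjusted p = 0.0858) and 1.59 after rescaling.

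The AP-1 and immediate early list had 25 intergenic peaks, 6 higher and 3 lower after rescaling. A peak 46.3 kb upstream of Jun, a subunit of AP-1, had 65.6, 54.8 and 64.0 tags after C26 medium and 34.0, 21.9 and 26.7 in control cells, without overlap (1.15 as deposited, adjusted p = 0.066, and 1.67 after rescaling). The start-site peak of Jun went the other way on the rescaled values (-0.27, adjusted p = 0.0132). A peak 10.5 kb upstream of Klf4, a zinc finger factor, was lower after rescaling (-0.63), as was the peak 9.0 kb downstream of Fosb shown above (-0.72). None of the 5 peaks of Fos was called.

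NF-kB and inflammatory genes had 39 intergenic peaks, 6 higher and 5 lower. Cxcl12, a chemokine that attracts CXCR4-bearing cells, held peaks that moved in opposite directions. The one 33.3 kb downstream had 16.8, 20.1 and 14.6 tags after C26 medium and 65.2, 32.1 and 51.9 in control cells (-1.44 as deposited, adjusted p = 0.0191, and -0.92 after rescaling). The one 8.0 kb upstream had 10.9, 10.1 and 13.2 tags after C26 medium and 2.68, 7.09 and 2.97 in control cells and was called after rescaling only (1.74). The peak 40.1 kb upstream of Nfkb1, an NF-kB subunit, was called lower after rescaling only (-0.66). The C/EBP and glucocorticoid list had 18 peaks, 3 higher and 4 lower, among the lower ones both peaks of Per1, a clock gene, and 2 of the 4 of Tsc22d3, which encodes GILZ.

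The TGF-beta, activin and matrix list was the largest, with 50 intergenic peaks, 11 higher and 9 lower after rescaling. The peak 10.6 kb upstream of Mmp13, a collagenase, had 26.9, 32.6 and 34.3 tags after C26 medium and 13.9, 8.44 and 9.39 in control cells, without overlap (1.503 as deposited, adjusted p = 0.0206, and 2.01 after rescaling). The peak 46.0 kb upstream of Bmp4, a BMP ligand, had 29.7, 28.8 and 22.8 tags after C26 medium and 89.4, 45.6 and 62.8 in control cells (-1.21 as deposited, adjusted p = 0.0511, and -0.69 after rescaling). Of the 3 peaks each of the collagen I genes Col1a1 and Col1a2, 2 were lower after rescaling in either gene, while 3 of the 6 peaks of Col5a1 and 2 of the 6 of Thbs2 were higher. As deposited 1 of the 6 peaks had a positive difference in each of Col5a1 and Thbs2.

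Of the 24 intergenic peaks in the IGF, Wnt and Notch list 7 were higher and 2 lower. The peak 5.7 kb upstream of Dkk3, a secreted protein of the Dickkopf family, had 13.3, 13.9 and 17.6 tags after C26 medium and 4.47, 0.68 and 3.46 in control cells (2.20 as deposited, adjusted p = 0.00176, and 2.68 after rescaling). The lower ones lay near Igfbp5, an IGF-binding protein (3.3 kb upstream, -0.82 after rescaling), and Sfrp2, a secreted Wnt modulator (25.9 kb upstream, -0.44 after rescaling). The methionine and folate list had 11 peaks, 1 higher and none lower, the higher one near Odc1, the first enzyme of polyamine synthesis. The stress and amino acid transport list had 14 peaks, 1 higher near Slc38a2, a neutral amino acid transporter, and 2 lower. One of the lower ones was the peak 43.6 kb downstream of Vldlr, a lipoprotein receptor, with 54.2, 54.8 and 43.7 tags after C26 medium and 165, 82.0 and 136 in control cells (-1.26 as deposited, adjusted p = 0.0215, and -0.73 after rescaling). The peak 11.3 kb downstream of Slc3a2, a subunit of amino acid transporters, was called on neither scale (-0.81 as deposited and -0.28 after rescaling).

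The 5 intergenic peaks with the highest means lay near 5430421F17Rik, Wnt7b, Tnrc18, Junb and Chit1, and none was called as deposited. The one near 5430421F17Rik had 277, 259 and 256 tags after C26 medium and 563, 315 and 442 in control cells. After rescaling the Wnt7b (-0.26) and Tnrc18 (-0.28) peaks were called lower. The genes with the most intergenic peaks were Mir3089 with 11, Gm8883 with 10, and Dusp1 and Socs3 with 9 each, none of them with a call as deposited. Dusp1, a phosphatase that inactivates MAP kinases, had 3 of its 9 peaks with a positive difference as deposited and 4 called higher after rescaling. Its peak 17.4 kb downstream, the one at the Gm34455 start shown above, had 13.3, 11.8 and 13.5 tags after C26 medium and 6.25, 2.70 and 4.45 in control cells (1.39 as deposited, adjusted p = 0.0756, and 1.87 after rescaling).

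As background, 0.0517% of the 7744 promoter peaks were called higher and 0.968% lower as deposited, and 2.31% and 21.7% after rescaling. These are all tested peaks of the promoter class, whereas the start-site peaks below are counted by gene, using a limit of 1000 bp. The sets were not matched, so a difference between their shares may come from how they were defined. Start-site peaks of genes with a called intergenic peak were mostly not called. As deposited 89 genes had a peak called higher, and of the 43 among them with a tested peak at the start none was called higher there and 1 lower. Of 148 genes with a peak called lower, 74 had a start-site peak, and none of these was called higher and 1 lower. With median-of-ratios scaling 606 of the 1088 genes with a peak called higher had a start-site peak, 31 of these called higher (5.12%) and 144 lower (23.8%). Of the 330 start-site peaks of genes with an intergenic peak called lower, 7 were called higher (2.12%) and 83 lower (25.2%).

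In the muscle of LLC-bearing mice, set beside these peaks as another model in another tissue, 0 of 12981 tested genes passed an adjusted p of 0.05 by limma on log2(FPKM + 1), and 991 (7.63%) had an unadjusted p under 0.05. The nearest genes of the intergenic peaks gave 2446 of those tested, again 0 called and 282 (11.5%) with an unadjusted p under 0.05. For the genes nearest to peaks called higher as deposited the number was 3 of 51, and for those nearest to peaks called lower 7 of 75. After rescaling the numbers were 102 of 704 (14.5%) and 45 of 364 (12.4%).

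Socs3 RNA averaged 12.1 ± 1.61 FPKM in muscle of LLC-bearing mice, against 3.34 ± 0.469 FPKM with PBS (SD, n = 3 each), a log2 difference of 1.60 that did not pass (limma adjusted p = 0.108). Jun had 36.4 ± 1.82 FPKM with LLC cells against 22.4 ± 6.98 with PBS (limma adjusted p = 0.513). Neb had 137 ± 20.6 FPKM with LLC cells against 133 ± 45.9 with PBS, and the groups overlapped.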

How the data were processed

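The deposited ATAC values are signal: HOMER counted tags in each peak in mm10 and set every library to a total of 10 M tags, per the file headers. They are whole multiples of 1 read end, so read ends were recovered (100% of values within 0.1 of a whole number). The RNA values are FPKM over exons, computed with HOMER and deposited as such, per the file headers. HISAT2, HOMER, DESeq2, Bowtie2, MACS2, GRCm38 and mm10 are named per the submitters' processing notes, with versions and roles not given in the sources used here, as for trimming, duplicates and the peak threshold. Peaks come from a merged list of the peaks called in each library. Each sample column was used.

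Peaks with a mean of at least 5 tags (37358) were tested with limma 3.58.1 (R 4.3.3) with a variance trend on log2(tags + 1), two-sided. Alternatives were median-of-ratios and quantile scaling, other pseudocounts and filters, edgeR 4.0.16 and DESeq2 1.42.0 on read ends, a replicate block and leaving out each library. Genes with a mean FPKM of at least 1 were tested the same way on log2(FPKM + 1). Of the fits, only limma on the deposited scale was run on simulated data. Apart from added changes, the simulated libraries were set to differ in total tags only, not in the share of tags in peaks. Named peaks are the 10 largest called rises and falls, up to 3 per gene list by smallest p, the 5 highest means and the 5 genes with the most peaks; other peaks and genes were named after their values were seen. The members and lists were chosen with earlier results of these data known. Intervals for the read counts were not computed; 10 nearest-gene names read as dates and 5 peaks had none. Not every named peak is reported here.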

Additional observations from a re-analysis of the deposited data

How the results depend on the processing

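Settings moved the counts of called intergenic peaks, and rescaling also moved the sign of many peaks. As deposited 1220 of the 6329 (19.3%) had a positive log2 difference, against 3397 (53.7%) with median-of-ratios scaling. Calls higher and lower were 1349 and 669 with median-of-ratios scaling, 1196 and 886 with quantile normalization, 163 and 409 without the variance trend, 51 and 36 with no filter on the peaks tested, 28 and 65 at a mean of at least 20, 1382 and 668 with edgeR and TMM, and 1025 and 401 with DESeq2. At an adjusted p under 0.1 they were 157 and 485. Of the 94 called higher in the main fit 53 lay within 25 kb, which is a smaller set of peaks and not another fit. Shares by distance are given above. At a mean of at least 20 fewer intergenic peaks were tested. Shares over all tested peaks are given above for the deposited and median-of-ratios fits only, so the other counts describe the settings and not these peaks. Leaving out 1 library gave 13 to 413 higher and 8 to 2938 lower as deposited, and with median-of-ratios scaling, without C26 library 1, 2 and 3 and control library 1, 2 and 3 in that order, 1184, 1213, 1079, 1175, 1226 and 1144 higher and 557, 580, 537, 551, 496 and 476 lower; a group left with fewer libraries is assumed to vary like the other. Replicate numbers gave no sign of pairing. The deviations of same-numbered libraries correlated at -0.011, 0.008 and -0.017, and those of the other pairs at -0.01 to 0.02. With so few libraries this cannot exclude a pairing, and the labels state none. The replicate block gave 91 higher and 136 lower as deposited, and the replicate block with median-of-ratios scaling 1347 and 670. The median-of-ratios fits with a library left out or a block, and other fits of named peaks, were chosen after seeing the data. All 20 of the largest changes kept their call in each fit that left no library out, with 10 of them tested at a mean of at least 20. Among the named peaks, reversed signs were found in peaks not called as deposited. For Chit1 the difference was 0.203 with median-of-ratios scaling with and without the block, 0.329 with quantile normalization (limma adjusted p = 4.48e-06, called higher), 0.207 with edgeR and TMM, 0.206 with DESeq2, and 0.224, 0.172, 0.221, 0.136, 0.268 and 0.199 with 1 library left out in the same order on the median-of-ratios scale, of which the one without control library 2 was called higher (adjusted p = 0.0366). For Junb it was 0.113 with quantile normalization and 0.038 to 0.059 with 1 library left out on the median-of-ratios scale. With 1 library left out on that scale, Mef2d reached 0.010 to 0.015, Nnmt 0.019, the upstream Dusp1 peak 0.037 and 5830428M24Rik 0.016 to 0.171. The motif search over whole peaks was not run, since no genome was used here. Low counts limit the weakest peaks, where 1 read end is worth up to 0.494 scaled tags.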
